A study of Mus musculus with 12 samples.

Results

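Interferon response genes are described here in 4T1 cells, a mouse mammary carcinoma line, that received a control guide RNA or a guide against ETV4, a PEA3-type transcription factor with an ETS DNA-binding domain. The 47 members were given as a list of gene symbols for interferon receptors, transcription factors, viral RNA sensors, antiviral effectors and interferon-inducible GTPases, out of 31017 symbols in the count table. A row was found for 46 of them, and Mx2 had none. Of these, 37 were expressed, defined as at least 1 CPM (counts scaled to a common library size) in at least 3 libraries. The study compared 4 groups of 3 RNA sequencing libraries: control, Etv4_KO, control_FGF and Etv4_KO_FGF. Both control groups were nucleofected with Cas9 and a control guide, and both knockout groups with Cas9 and an ETV4 guide. Every culture was a 3D culture in collagen I, seeded at 100000 cells/ml in gels of 1.2 or 2.4 mg/ml collagen. The concentration is not given per library. All 12 libraries, with or without FGF, are listed with 10% serum first and then 4 days in 2% serum. For the FGF groups, 25 ng/ml FGF10 with 40 ng/ml FGF2 was in the medium. Both factors were present overnight in 10% serum and over the 4 days in 2% serum. Collagenase freed the cells from the gels ahead of RNA extraction. No interferon was added to any group, as far as the labels say, so the values are levels in unstimulated culture. The names of all 6 knockout libraries carry the tag C39, which the labels leave unexplained, and whether these cells are 1 clone or a pool is not given. If they are 1 clone, its own features and the loss of ETV4 cannot be told apart. Separate cultures are not stated for the replicates either, so p-values measure the spread between libraries, which may be technical.

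Interferons are secreted proteins through which cells signal infection. Type I interferons bind the receptor chains IFNAR1 and IFNAR2, interferon gamma binds IFNGR1 and IFNGR2, and both receptors act through JAK kinases and STAT transcription factors. Type I interferons act through the complex ISGF3, which contains STAT2 and IRF9 and binds the interferon-stimulated response element (ISRE), while interferon gamma acts through the gamma-activated site (GAS). The induced genes encode sensors of viral RNA, enzymes that degrade or block it, ubiquitin-like modifiers and GTPases that attack intracellular pathogens. Many of them keep a low basal level in unstimulated epithelial cells.

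Library totals ran from 18229429 to 23193244 counts. Etv4 itself, checked first, averaged 166 ± 3.18 CPM across control, 130 ± 24.8 across Etv4_KO, 165 ± 9.44 across control_FGF and 116 ± 3.3 across Etv4_KO_FGF (SD, n = 3 each). The groups did not overlap in either condition (edgeR adjusted p = 0.0173 and 0.00204), although by exact two-sided permutation p was 0.1, the smallest that 3 against 3 libraries allow. The library labelled Etv4_KO replicate 2 held Etv4 at 159 CPM, against 116 in both other knockout libraries, and stood apart from all others on the second principal component (10.4% of the variance). Counts of members called are given with and without it. Leaving out control replicate 1 or either other knockout library (replicate 1 or 3) ended the call for Etv4 in the absence of FGF, at edgeR adjusted p = 0.0514, 0.0661 and 0.0667. These are RNA levels and do not show whether ETV4 protein was lost, since no protein was measured here.

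Most of the interferon response genes were lower in ETV4 knockout cells. Without FGF, 26 of the 37 expressed members were called lower and 1 higher at an edgeR adjusted p under 0.05, where 23.3% of all 12079 genes tested were called lower and 22.5% higher. With FGF, 24 were called lower and 3 higher, against 22.2% lower and 18% higher over all genes. The median log2 fold change of the 37 was -0.82 without and -0.74 with FGF, and that of all genes tested was -0.01 in both. At least 2-fold lower were 15 members in each condition, where 7.41% of all genes were called lower by that much without FGF and 7.31% with it. The 2 knockout comparisons share no library, though they share 1 fit: 23 members were lower in both, against 16.8% of all genes tested, and 12 of these by at least 2-fold in both. Only Oasl1 was higher in both, and no member was called in opposite directions. Bst2, Ifit1, Ifnar2, Irf7, Oas3, Samd9l and Stat2 were called in neither. Without Etv4_KO replicate 2, 28 members were lower and 1 higher without FGF, against 28.2% and 26.3% of all genes, with Bst2 and Ifnar2 as the added calls. With FGF the fit without it called 25 members lower and 3 higher, against 30.5% and 28.1% of all genes, with Xaf1 added (adjusted p = 0.00859). Dhx58, Sp100, Gbp7 and Igtp reached 1 CPM in at most 1 knockout library and met the expression rule through the control libraries, so they could only enter as genes high in control. Without these 4, 22 of 33 members were lower and 1 higher without FGF, and 20 lower and 3 higher with FGF, with medians of log2 -0.75 and -0.72. At least 2-fold lower were then 11 of the 33 in each condition. All 4 belong to the 12 that were at least 2-fold lower in both, a count given without a share over all genes.

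**Figure D1:**
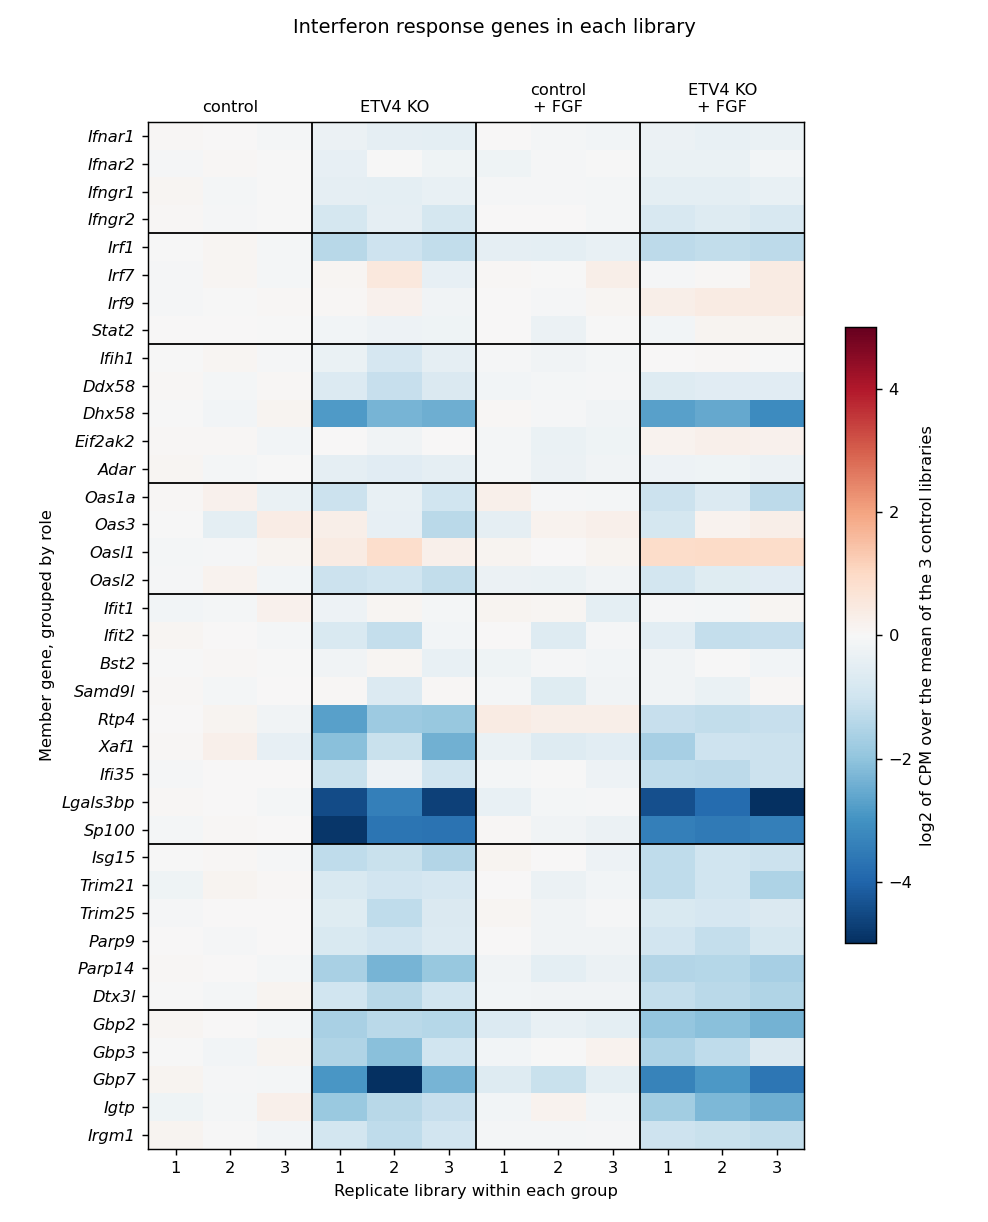
Each row is 1 of the 37 expressed members, grouped by role, and each column 1 of the 12 libraries in 4 groups. Colour gives log2 of the CPM (plus 0.1) over the mean of the 3 control libraries, blue for lower and red for higher; the darkest rows in both knockout groups are Lgals3bp, Sp100, Gbp7 and Dhx58, and Oasl1 is the member higher in both.

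The role of interferon-responsive DNA elements in these genes is well known, so the promoters of 5 members are shown as RefSeq sequence (GRCm38.p6), each the 150 bases before the RefSeq start, 5′ to 3′ on the gene's strand. Isg15 and Ifit1 are shown because both hold 3 copies of the ISRE core and only Isg15 was called, Gbp7 and Igtp because they hold both elements, and Irf1 because its GAS stands without an ISRE. Within 250 bases before the start, Oas1a and Bst2 also hold both elements, and Ifnar2, Eif2ak2 and Ifit2 a GAS without an ISRE core. Of these, Oas1a was lower in both conditions and Ifit2 with FGF. Eif2ak2 was higher with FGF, and Bst2 and Ifnar2 were called in neither condition. Capitals mark matches to the ISRE core GAAANNGAA or the GAS TTCNNNGAA on either strand.
Isg15: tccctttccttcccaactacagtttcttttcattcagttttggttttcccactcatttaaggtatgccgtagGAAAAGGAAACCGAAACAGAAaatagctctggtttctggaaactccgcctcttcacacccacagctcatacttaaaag
Ifit1: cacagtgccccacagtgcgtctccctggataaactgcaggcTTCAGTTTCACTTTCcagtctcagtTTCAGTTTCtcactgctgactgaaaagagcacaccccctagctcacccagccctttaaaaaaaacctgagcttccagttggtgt
Gbp7: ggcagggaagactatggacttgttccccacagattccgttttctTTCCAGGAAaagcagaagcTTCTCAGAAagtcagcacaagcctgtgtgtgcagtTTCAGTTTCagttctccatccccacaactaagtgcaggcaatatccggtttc
Igtp: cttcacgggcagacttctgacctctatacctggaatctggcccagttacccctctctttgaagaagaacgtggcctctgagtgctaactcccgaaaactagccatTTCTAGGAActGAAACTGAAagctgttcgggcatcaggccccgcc
Irf1: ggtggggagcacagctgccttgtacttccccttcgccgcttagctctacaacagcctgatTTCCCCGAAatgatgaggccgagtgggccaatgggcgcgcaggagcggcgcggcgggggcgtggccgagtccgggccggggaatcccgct
These windows lie at chr4:156200819-156200968 on the minus strand for Isg15, chr19:34640739-34640888 for Ifit1, chr3:142530186-142530335 for Gbp7, chr11:58199406-58199555 for Igtp and chr11:53769864-53770013 for Irf1, the last 4 on the plus strand. GENCODE vM21 starts Ifit1 slightly before the RefSeq start, within the last bases of its window. In Isg15 the 3 ISRE cores overlap in 1 run from 78 to 58 bases before the start, each sharing bases with the next. Ifit1 holds its cores on the opposite strand, a pair that overlaps and 1 more nearer the start.

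A promoter entry of 250 bases before the start was available for 37 of the 47 members, and it held the ISRE core in 16 of them (43.2%), where 8.18% of 27025 genes held it. The GAS was found in 8 (21.6%), against 8.13% of genes, and the ETS motif CCGGAAGT in 2, Ifnar1 and Ifit2 (5.41%), against 3.23% of genes. Within the expressed members, the ISRE core was as frequent among those lower in both knockout comparisons, 8 of 19 with an entry (42.1%), as among the others, 6 of 14 (42.9%). For the GAS these counts were 4 of 19 (21.1%) and 4 of 14 (28.6%). The 3 members called higher in either condition, Oasl1, Irf9 and Eif2ak2, held no ISRE core in this window, and Eif2ak2 held a GAS. Genes with several starts were counted once if any of their windows matched. A match describes letters and not a bound site.

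Interferons themselves were close to absent. Of 21 interferon ligand genes listed, among them Ifnb1, the type I interferon of epithelial cells and fibroblasts, and Ifng, interferon gamma, 16 had no count in any of the 12 libraries. All 21 together gave 4 counts over the 3 control libraries, 1 over the knockout libraries, 4 in control with FGF and 1 in knockout with FGF. A count of 0 over a group allows a level of up to 0.05, 0.0498, 0.0477 and 0.0481 CPM in these 4 groups, counting error only. None of the ligands passed the filter for testing, and no difference between groups was detectable at this depth.

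Of the 4 receptor chains, 3 were called lower in both conditions, each by less than 2-fold, and Ifnar2 in neither. Ifngr2, the signalling chain of the interferon gamma receptor (mm10, chromosome 16, 91547072 to 91565623), stood at 46.2, 42.6 and 43.6 CPM across control, 45.1, 44.8 and 40.7 across control_FGF, 23.8, 32.5 and 23.8 across Etv4_KO and 25.3, 28.5 and 25.2 across Etv4_KO_FGF. All 6 knockout libraries lay below all 6 control libraries, with replicate 2 the highest of the knockout libraries without FGF (log2 -0.73, SE 0.11, adjusted p = 0.000221 without FGF, and log2 -0.73, SE 0.11, adjusted p = 0.000238 with FGF). Ifngr1, the ligand-binding chain, stood at 36, 31.1 and 32.5 CPM across control, 31.4, 31.9 and 30.8 across control_FGF, 24.2, 23.8 and 25.7 across Etv4_KO and 23.9, 23.5 and 25.4 across Etv4_KO_FGF, also without overlap (log2 -0.43, SE 0.08, adjusted p = 0.00073 without FGF, and log2 -0.37, SE 0.08, adjusted p = 0.00247 with FGF). Ifnar1, the first chain of the type I receptor, stood at 86.7, 84.6 and 77.8 CPM across control, 84.1, 77.1 and 75.5 across control_FGF, 67.8, 61.2 and 59.7 across Etv4_KO and 67.6, 64.4 and 66.8 across Etv4_KO_FGF. Its groups were separate in both conditions, by log2 -0.40 (SE 0.08, adjusted p = 0.000899) without FGF and log2 -0.25 (SE 0.08, adjusted p = 0.0176) with FGF. The Ifnar1 call with FGF was lost without control_FGF replicate 1 (adjusted p = 0.0863) or Etv4_KO_FGF replicate 2 (0.0686). Ifnar2, the other type I chain, stood at 11.1, 11.9 and 11.4 CPM across control, 9.99, 11.1 and 11.3 across control_FGF, 8.63, 11.3 and 9.95 across Etv4_KO and 9.16, 9.2 and 10.4 across Etv4_KO_FGF, and its groups overlapped in both conditions (adjusted p = 0.156 without and 0.277 with FGF). Without Etv4_KO replicate 2 it was called lower without FGF (log2 -0.31, edgeR adjusted p = 0.0402).

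Among the 4 transcription factors Irf1 fell, and Stat2, Irf9 and Irf7 were not called lower. Irf1, which is induced through the GAS and activates many interferon response genes (chromosome 11, 53770014 to 53778374), stood at 58.2, 62.9 and 53.8 CPM across control, 42.4, 42 and 44.6 across control_FGF, 22.3, 28.1 and 24.9 across Etv4_KO and 23.7, 24.5 and 23.6 across Etv4_KO_FGF. No knockout library reached the lowest control library, and the difference was 2.33-fold without FGF (log2 -1.22, SE 0.09, adjusted p = 4.28e-07) and 1.80-fold with FGF (log2 -0.84, SE 0.09, adjusted p = 1.18e-05). Stat2, the ISGF3 subunit that carries its activation domain, stood at 23.5, 23.3 and 22.6 CPM across control, 23.5, 18.7 and 23 across control_FGF, 21.3, 19.2 and 19.7 across Etv4_KO and 21.3, 25.4 and 25.6 across Etv4_KO_FGF and was not called (adjusted p = 0.136 and 0.296). Irf9, the DNA-binding subunit, stood at 9.59, 9.87 and 10.2 CPM across control, 9.91, 9.54 and 10.6 across control_FGF, 10.3, 11.4 and 8.73 across Etv4_KO and 12.2, 13.2 and 13.3 across Etv4_KO_FGF. Without FGF its groups overlapped (adjusted p = 0.823), and with FGF every knockout library was above every control library (log2 0.36, SE 0.11, adjusted p = 0.0176), a call lost without control_FGF replicate 1, Etv4_KO_FGF replicate 2 or Etv4_KO_FGF replicate 3 (adjusted p = 0.0541, 0.0541 and 0.0576). Irf7, the main amplifier of type I interferon production, was low, at 2.87, 3.21 and 2.79 CPM across control, 3.05, 2.88 and 3.67 across control_FGF, 3.18, 4.32 and 2.19 across Etv4_KO and 2.81, 3.12 and 3.94 across Etv4_KO_FGF, and its groups overlapped in both conditions. The exons of Irf9 overlap those of Rnf31 on the same strand, and the exons of Irf7 those of Phrf1 on the opposite strand, so their counts are less certain.

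Of the 4 expressed sensors of viral RNA, Dhx58, Ddx58 and Ifih1 were called lower without FGF, and Dhx58 and Ddx58 with FGF. Dhx58 encodes LGP2, a regulator of the RNA helicase sensors (chromosome 11, 100694884 to 100704271). It stood at 4.18, 3.87 and 4.73 CPM across control, 4.47, 4.09 and 3.81 across control_FGF, 0.505, 0.779 and 0.701 across Etv4_KO and 0.561, 0.634 and 0.394 across Etv4_KO_FGF, so every control library was at least 3.81 CPM and every knockout library below 1 CPM. Its fold change was the fourth largest decrease of the members without FGF (6.43-fold; log2 -2.69, SE 0.22, adjusted p = 8.99e-07) and was 7.74-fold with FGF (log2 -2.95, SE 0.23, adjusted p = 4.59e-07). An antisense transcript, Dhx58os, overlaps its exons. Ddx58, which encodes the sensor RIG-I, stood at 28.1, 25.1 and 27.8 CPM across control, 24.8, 25.5 and 25.9 across control_FGF, 16.7, 12.2 and 16.2 across Etv4_KO and 17.4, 18.1 and 18.3 across Etv4_KO_FGF, with no overlap between genotypes (log2 -0.84, SE 0.11, adjusted p = 4.99e-05 without FGF, and log2 -0.5, SE 0.11, adjusted p = 0.00241 with FGF). For Ifih1, which encodes the long double-stranded RNA sensor MDA5 and was singled out after its values were seen, the libraries held 18.8, 20.6 and 18.5 CPM across control, 18.6, 16.9 and 17.8 across control_FGF, 15.3, 10.6 and 14.2 across Etv4_KO and 19.6, 20.2 and 19.1 across Etv4_KO_FGF. Knockout libraries were below control without FGF (log2 -0.52, SE 0.12, adjusted p = 0.00322) and above it with FGF, where the gene was not called (log2 0.15, SE 0.12, adjusted p = 0.348). Adar, the RNA editing enzyme that marks self RNA, was likewise called lower without FGF (log2 -0.48, SE 0.08, adjusted p = 0.000304) and not with it (log2 -0.08, SE 0.08, adjusted p = 0.422). Eif2ak2, the RNA-dependent kinase PKR, had means of 63.6 ± 4.57 CPM in control and 62.2 ± 4.58 in knockout, and of 54.8 ± 4.86 and 74 ± 1.46 with FGF (SD, n = 3 each), called higher in the knockout with FGF (log2 0.43, SE 0.09, adjusted p = 0.00142) and not without it (adjusted p = 0.789). Whether Adar, Ifih1 and Eif2ak2 differ between the conditions is given with the FGF effects.

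The oligoadenylate synthetases make a second messenger that activates RNase L, and members of the family differ in that activity. Oasl2, a family member with synthetase activity (chromosome 5, 114896936 to 114912234), stood at 12.6, 14.7 and 11.9 CPM across control, 10.7, 10.3 and 11.4 across control_FGF, 6.11, 6.59 and 5.51 across Etv4_KO and 6.87, 8.51 and 8.68 across Etv4_KO_FGF. All knockout libraries were below all control libraries in each condition (log2 -1.11, SE 0.13, adjusted p = 1.99e-05 without FGF, and log2 -0.43, SE 0.13, adjusted p = 0.0153 with FGF). With FGF that call was lost without control_FGF replicate 3 or Etv4_KO_FGF replicate 1 (adjusted p = 0.058 and 0.0756). Oas1a stood at 4.04, 4.63 and 3.09 CPM across control, 4.64, 3.74 and 3.62 across control_FGF, 1.82, 3 and 1.92 across Etv4_KO and 1.82, 2.38 and 1.53 across Etv4_KO_FGF, with the knockout libraries lower in both conditions (log2 -0.82, SE 0.24, adjusted p = 0.0127 without FGF, and log2 -1.07, SE 0.24, adjusted p = 0.00308 with FGF). Without control replicate 2 the Oas1a call without FGF was lost (adjusted p = 0.0608). Oasl1, the next gene to Oasl2 and known as a translational inhibitor of Irf7, went the other way, at 11.3, 11.8 and 13.3 CPM across control, 13.4, 12.3 and 13.4 across control_FGF, 16.3, 22.5 and 14.3 across Etv4_KO and 22.8, 23.5 and 23.1 across Etv4_KO_FGF. Every knockout library was above every control library (log2 0.54, SE 0.14, adjusted p = 0.00733 without FGF, and log2 0.83, SE 0.14, adjusted p = 0.000406 with FGF), and without FGF replicate 2 was the highest. Without Etv4_KO replicate 2 the difference without FGF was log2 0.34 (edgeR adjusted p = 0.0103). Oas3 lay between 0.607 and 2.24 CPM over the 12 libraries, with overlap in both conditions, and was not called.

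The largest differences were in 2 effectors. Lgals3bp encodes a secreted glycoprotein that binds galectins (chromosome 11, 118392751 to 118402092) and stood at 31.1, 30.5 and 27.6 CPM across control, 22.7, 28.2 and 28.8 across control_FGF, 1.26, 2.7 and 1.07 across Etv4_KO and 1.31, 1.96 and 0.74 across Etv4_KO_FGF. On average the knockout held 1.68 ± 0.888 CPM against 29.8 ± 1.91 in control, and with FGF 1.33 ± 0.608 against 26.6 ± 3.33 CPM (SD, n = 3 each). The lowest control library held about an order of magnitude more than the highest knockout library in the same condition (log2 -4.19, SE 0.27, adjusted p = 8.33e-08 without FGF, and log2 -4.32, SE 0.27, adjusted p = 7.8e-08 with FGF). Sp100, a component of PML nuclear bodies that restrains viral transcription (chromosome 1, 85649988 to 85709998), stood at 10.8, 12.1 and 11.8 CPM across control, 12.1, 10.3 and 9.43 across control_FGF, 0.303, 0.839 and 0.794 across Etv4_KO and 0.982, 0.898 and 0.986 across Etv4_KO_FGF. Below 1 CPM in all 6 knockout libraries, it had 6 to 21 counts there against 198 to 289 in control libraries (log2 -4.16, SE 0.23, adjusted p = 1.86e-08 without FGF, and log2 -3.47, SE 0.21, adjusted p = 4.96e-08 with FGF). Its family members on the same stretch of chromosome 1 were lower too: Sp140 had 253 counts over the control and 0 over the knockout libraries, at least 84.7-fold lower, and 215 and 0 counts with FGF, at least 71.1-fold lower, against a floor of 3 counts per group. Sp110 had 144 counts over the control and 1 over the knockout libraries (ratio 145, counting interval of 95% from 25.5 to 5750), and 127 and 3 with FGF (ratio 42, from 14 to 206). These 2 genes were singled out after their values were seen, and they are near-relatives whose reads may be shared.

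**Figure D2:**
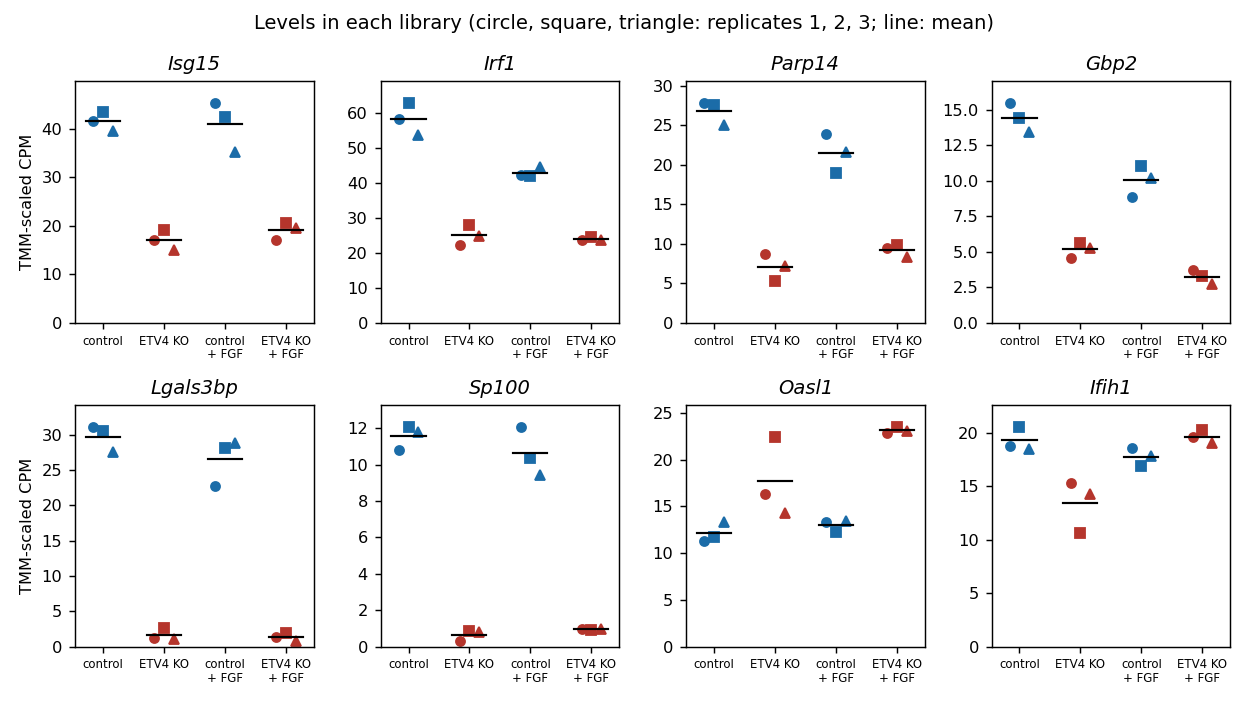
TMM-scaled CPM of 8 members in each of the 12 libraries, with linear axes that start at 0 and a line at the mean of each group; blue marks control and red knockout. Isg15, Irf1, Parp14, Gbp2, Lgals3bp and Sp100 are lower in every knockout library than in any control library of the same condition, Oasl1 is higher in every one, and Ifih1 is lower in the knockout libraries without FGF and not with it.

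The other antiviral effectors comprised genes that fell and genes that were not called. Rtp4, a chaperone-like interferon-induced protein (chromosome 16, 23520291 to 23614222), stood at 3.24, 3.59 and 2.84 CPM across control, 4.26, 3.94 and 3.95 across control_FGF, 0.404, 0.839 and 0.794 across Etv4_KO and 1.4, 1.32 and 1.38 across Etv4_KO_FGF. Its highest knockout library, at 1.40 CPM, was below the lowest control library, at 2.84 CPM (log2 -2.25, SE 0.24, adjusted p = 8.62e-06 without FGF, and log2 -1.56, SE 0.20, adjusted p = 5.6e-05 with FGF). Xaf1, a pro-apoptotic partner of XIAP, stood at 4.79, 5.57 and 3.48 CPM across control, 3.64, 2.93 and 3.14 across control_FGF, 1.01, 2.1 and 0.794 across Etv4_KO and 1.4, 2.22 and 2.17 across Etv4_KO_FGF, lower without FGF (log2 -1.87, SE 0.31, adjusted p = 0.000334) and not called with FGF by edgeR although the libraries did not overlap (log2 -0.75, SE 0.30, adjusted p = 0.058), while DESeq2 and limma-voom called it (adjusted p = 0.0345 and 0.0499). Ifi35, an interferon-induced leucine zipper protein, stood at 32.1, 34.1 and 34 CPM across control, 31, 33.4 and 28.3 across control_FGF, 15.3, 28.2 and 16.5 across Etv4_KO and 13.9, 13.5 and 15.7 across Etv4_KO_FGF. Replicate 2 of the knockout was close to control without FGF while replicates 1 and 3 were far below it (log2 -0.75, SE 0.18, adjusted p = 0.00391), and with FGF all 3 knockout libraries were low (log2 -1.1, SE 0.18, adjusted p = 0.000314). Ifit2, a translation inhibitor, was called lower with FGF (log2 -0.74, SE 0.26, adjusted p = 0.0352), and leaving out either control_FGF replicate 1 or 3, or Etv4_KO_FGF replicate 2 or 3, ended that call (adjusted p from 0.103 to 0.129). Without FGF Ifit2 had an adjusted p of 0.0574 by edgeR, 0.0374 by DESeq2 and 0.0421 by limma-voom. Its family member Ifit1, which binds viral RNA caps, stood at 2.73, 2.88 and 3.53 CPM across control, 3.39, 3.28 and 2.14 across control_FGF, 2.57, 3.24 and 2.85 across Etv4_KO and 2.94, 2.8 and 3.25 across Etv4_KO_FGF. Those libraries overlapped in both conditions. Bst2, the virion tether tetherin, had means of 39.3 ± 1.17 CPM in control and 35.9 ± 5.71 in knockout, 35.6 ± 1.97 in control with FGF and 36.3 ± 2.2 in knockout with FGF (SD, n = 3 each). Bst2 was called in neither condition, and without Etv4_KO replicate 2 it was called lower without FGF (log2 -0.26, edgeR adjusted p = 0.00874). Samd9l, between 11.3 and 19.1 CPM over all libraries, was not called either.

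All 6 expressed genes for ISG15, ubiquitin ligases and ADP-ribose enzymes were lower in both conditions. Isg15, the ubiquitin-like modifier whose promoter is printed above (chromosome 4, 156199424 to 156200818), stood at 41.5, 43.6 and 39.5 CPM across control, 45.3, 42.5 and 35.2 across control_FGF, 17.1, 19.2 and 15 across Etv4_KO and 17, 20.6 and 19.6 across Etv4_KO_FGF. Knockout libraries reached at most 20.6 CPM and control libraries were at least 35.2 CPM, a 2.44-fold difference without FGF (log2 -1.28, SE 0.12, adjusted p = 2.93e-06) and 2.15-fold with FGF (log2 -1.1, SE 0.12, adjusted p = 9.55e-06). Parp14, a mono-ADP-ribosyltransferase (chromosome 16, 35832874 to 35871544), stood at 27.8, 27.5 and 25.1 CPM across control, 23.9, 18.9 and 21.7 across control_FGF, 8.73, 5.33 and 7.14 across Etv4_KO and 9.54, 9.83 and 8.38 across Etv4_KO_FGF. It too was separate in every library (log2 -1.92, SE 0.15, adjusted p = 5.94e-07 without FGF, and log2 -1.22, SE 0.15, adjusted p = 2.74e-05 with FGF). Next to it lie Dtx3l and Parp9, a ubiquitin ligase and its partner, which are transcribed head to head and have exons that overlap on opposite strands. For Dtx3l the values were 41.4, 39.3 and 46.4 CPM across control, 38.5, 37.2 and 37.2 across control_FGF, 21, 16.1 and 21.4 across Etv4_KO and 18.5, 16.6 and 14.8 across Etv4_KO_FGF, with every knockout library at 21.4 CPM or less (log2 -1.12, SE 0.12, adjusted p = 7.93e-06 without FGF, and log2 -1.18, SE 0.12, adjusted p = 5.24e-06 with FGF). Parp9 fell by log2 -0.80 and log2 -0.89 (SE 0.11 each, adjusted p = 5.59e-05 and 2.38e-05). Trim21, a cytosolic antibody receptor and ubiquitin ligase (chromosome 7, 102557921 to 102565486), stood at 10.7, 13.8 and 12.8 CPM across control, 12.8, 10.2 and 11.2 across control_FGF, 7.27, 6.29 and 6.91 across Etv4_KO and 5.14, 6.24 and 4.24 across Etv4_KO_FGF, again without overlap (log2 -0.86, SE 0.15, adjusted p = 0.000485 without FGF, and log2 -1.14, SE 0.15, adjusted p = 7.36e-05 with FGF). Trim25, the ligase known for acting on RIG-I, went from 114 ± 3.52 to 63.7 ± 14.9 CPM without FGF (SD, n = 3 each; log2 -0.84, SE 0.14, adjusted p = 0.000289), and fell with FGF as well (log2 -0.72, SE 0.14, adjusted p = 0.00101).

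The 5 expressed interferon-inducible GTPases were each called at least 2-fold lower in both conditions, and for Gbp7 and Igtp the expression rule itself was met through the control libraries. Guanylate-binding proteins coat the vacuoles and membranes of intracellular pathogens, and the immunity-related GTPases Igtp and Irgm1 act on the same vacuoles. Gbp7 (chromosome 3, 142530342 to 142550149) stood at 7.85, 6.94 and 6.67 CPM across control, 4.56, 3.28 and 5.09 across control_FGF, 0.858, 0.12 and 1.35 across Etv4_KO and 0.608, 0.898 and 0.493 across Etv4_KO_FGF. Its 6 knockout libraries held 2 to 29 counts and the 6 control libraries 65 to 167 (log2 -3.12, SE 0.37, adjusted p = 2.35e-05 without FGF, and log2 -2.7, SE 0.40, adjusted p = 0.000142 with FGF). Gbp2 (chromosome 3, 142620602 to 142638008) stood at 15.5, 14.4 and 13.4 CPM across control, 8.86, 11 and 10.2 across control_FGF, 4.59, 5.63 and 5.28 across Etv4_KO and 3.74, 3.33 and 2.71 across Etv4_KO_FGF, and all knockout libraries were below all control libraries (log2 -1.48, SE 0.14, adjusted p = 2.87e-06 without FGF, and log2 -1.61, SE 0.15, adjusted p = 2.16e-06 with FGF). Gbp3, which lies between them, stood at 4.09, 3.73 and 4.63 CPM across control, 3.72, 4.14 and 4.67 across control_FGF, 1.41, 0.899 and 2.06 across Etv4_KO and 1.36, 1.64 and 2.46 across Etv4_KO_FGF. It was lower without overlap in each condition (log2 -1.48, SE 0.27, adjusted p = 0.000642 without FGF, and log2 -1.2, SE 0.26, adjusted p = 0.0024 with FGF). Igtp (chromosome 11, 58199556 to 58207591), whose promoter holds an ISRE core and a GAS, stood at 2.44, 2.69 and 3.44 CPM across control, 2.59, 3.28 and 2.62 across control_FGF, 0.707, 1.02 and 1.21 across Etv4_KO and 0.795, 0.529 and 0.444 across Etv4_KO_FGF. Its levels were low but separate (log2 -1.53, SE 0.26, adjusted p = 0.000435 without FGF, and log2 -2.24, SE 0.28, adjusted p = 4.07e-05 with FGF). Irgm1 (chromosome 11, 48861968 to 48871683), the regulator of the other immunity-related GTPases, stood at 18, 16.2 and 14.7 CPM across control, 15.2, 15 and 15.6 across control_FGF, 8.58, 6.65 and 8.41 across Etv4_KO and 7.81, 7.45 and 6.85 across Etv4_KO_FGF. Its difference was nearly equal in the 2 conditions (log2 -1.04, SE 0.12, adjusted p = 1.63e-05 without FGF, and log2 -1.05, SE 0.12, adjusted p = 1.68e-05 with FGF). Members of these families resemble one another and Igtp shares exonic bases with Irgm2 on the same strand, so reads may be split among them.

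**Figure D3:**
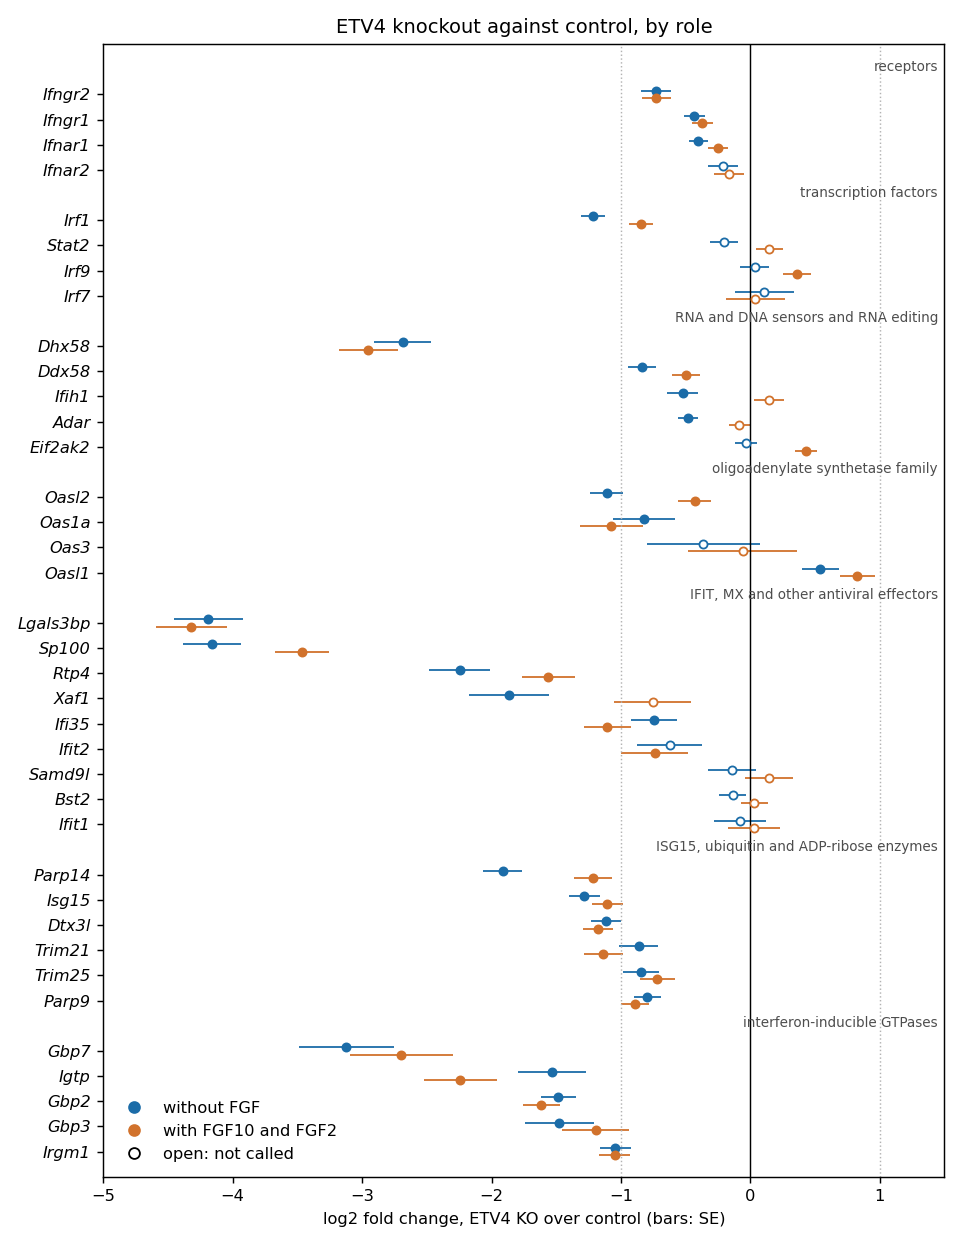
Log2 fold change of ETV4 knockout over control (x axis) with its SE for each of the 37 expressed members, ordered within roles, without FGF in blue and with FGF10 and FGF2 in orange; open points were not called and dotted lines mark a 2-fold difference. The 5 GTPases and the 6 genes for ISG15, ubiquitin and ADP-ribose enzymes lie left of 0 in both conditions, and Oasl1 lies right of 0.

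The remaining 9 members with a row were below the expression rule. Zbp1, Ifi44, Cmpk2 and Usp18 passed the filter for testing, and of these only Cmpk2, the mitochondrial nucleotide kinase, was called: lower in the knockout with FGF (log2 -2.39, SE 0.56, adjusted p = 0.00388), where it had 17 to 24 counts per control library and 3 or 4 per knockout library. Cmpk2 passed that filter through the control libraries, so it could only enter as a lower gene. Outside Etv4_KO replicate 1, with 14 counts, no knockout library held more than 4. Cmpk2 and Usp18 reached 1 CPM in 2 libraries each and lay just outside the rule, while Dhx58 and Sp100, which reached it in 6, were the expressed members with the fewest such libraries, all of them control libraries. Oas2, Ifit3, Mx1, Rsad2 and Iigp1 were not tested. Ifit3 stood between 0.142 and 0.719 CPM, and Mx1, a dynamin-like antiviral GTPase, at no more than 0.143 CPM in any library.

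Few of these genes were called between cultures with and without FGF10 and FGF2. In control cells, edgeR called 0 of the 37 expressed members in either direction, where 0.488% of all genes tested were called. At an unadjusted p under 0.05 there were 7, DESeq2 called 2 lower and limma-voom 1. For none of the FGF comparisons is the share of all genes at that threshold or by these tools given. Such counts therefore cannot be set against a background. The nearest to the threshold was Irf1, with means of 58.3 ± 4.53 and 43 ± 1.4 CPM (SD, n = 3 each; log2 -0.44, SE 0.09, adjusted p = 0.057). Every control_FGF library held less Irf1 than every control library. Gbp2 (log2 -0.53, SE 0.13, adjusted p = 0.145) and Gbp7 (log2 -0.73, SE 0.29, adjusted p = 0.714) had similar or larger differences and did not pass either. Without Etv4_KO replicate 2, which is in neither group but enters the shared estimate of spread, these 3 genes were called lower, where 2.8% of all genes were called. In knockout cells 2 members were called, against 2.42% of all genes, and 14 had an unadjusted p under 0.05. Ifih1 rose (log2 0.55, SE 0.12, adjusted p = 0.0313) and Gbp2 fell (log2 -0.66, SE 0.15, adjusted p = 0.0433), the latter not by limma-voom (adjusted p = 0.0818). Neither call held when the compared libraries were fitted alone (adjusted p = 0.303 and 0.297), and both were lost in most fits that left out 1 library: for Ifih1 any but control replicate 2 or a knockout library without FGF, and for Gbp2 any but Etv4_KO replicate 1 or 2. With the replicate number as a block, Gbp2 had an adjusted p of 0.0599. Without Etv4_KO replicate 2, 7 members were called, where 7.76% of all genes were, with Irf9, Oasl1, Rtp4 and Xaf1 as added genes that rose and Dtx3l as one that fell.

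Whether the FGF effect depended on genotype was tested as an interaction. By edgeR 0 of the 37 members were called, against 0.0166% of all genes tested. An unadjusted p under 0.05 was found for 9, DESeq2 called 1 higher, Ifih1, and limma-voom called 0, again without a share over all genes. The differences called in only 1 condition for Adar, Ifih1, Eif2ak2, Xaf1, Irf9 and Ifit2 were therefore not shown to differ between conditions (log2 0.4, SE 0.11, adjusted p = 0.364 for Adar, log2 0.67, SE 0.17, adjusted p = 0.287 for Ifih1, log2 0.46, SE 0.12, adjusted p = 0.315 for Eif2ak2, log2 1.11, SE 0.43, adjusted p = 0.482 for Xaf1, log2 0.33, SE 0.16, adjusted p = 0.485 for Irf9, and log2 -0.12, SE 0.36, adjusted p = 0.888 for Ifit2). Without Etv4_KO replicate 2, 4 members passed, where 0.981% of all genes did. These were Irf1 (log2 0.46, edgeR adjusted p = 0.0338), Ifih1 (log2 0.53, 0.0439), Eif2ak2 (log2 0.40, 0.0379) and Xaf1 (log2 1.60, 0.0489), each with the FGF effect higher in knockout than in control cells.

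Compared per kilobase of exon, the order of the members changed with genotype. In control libraries Isg15 was the most abundant at 55.0 CPM per kb, followed by Bst2 at 43.6 and, well below, Trim25 at 19.9 and Ifi35 at 19.3 CPM per kb. At the other end were Irf7 at 0.782 and Oas3 at 0.241 CPM per kb. In knockout libraries Bst2 came first at 39.7 CPM per kb and Isg15 next at 22.6. Lgals3bp moved from rank 10 to rank 29 of the 37, from 10.5 to 0.589 CPM per kb, and Sp100 from rank 28 to rank 37, from 1.53 to 0.0854 CPM per kb. Irf1 moved from rank 5 to rank 11 and Oasl1 from rank 15 to rank 9. Trim25 and Ifi35 were too close to be ordered, as were Ifngr1 and Ifngr2, both at 11.7 CPM per kb in control libraries.

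Chromosome position moved with part of the result. Of the 37 expressed members 8 lie on chromosome 11 and 7 on chromosome 16, whose tested genes had a median log2 fold change of -0.37 and -0.40 in the knockout without FGF and of -0.40 and -0.37 with FGF. The median of the nearest tested genes that are no members, up to 25 on each side (50 in all except 28 for Isg15 and 25 for Samd9l), was at or below log2 -0.3 for 15 members without FGF and for 14 with FGF. Around the receptor genes Ifnar1 and Ifngr2 it was -0.43 without FGF, against -0.40 and -0.73 for the genes, and -0.51 with FGF, against -0.25 and -0.73. Around Ifngr1 it was -0.27 without FGF and -0.13 with FGF, against -0.43 and -0.37 for the gene. Neighbours of Irf1 had a median of -0.39 and those of Parp14, Dtx3l and Parp9 of -0.46 without FGF. Around Lgals3bp it was -0.43 without FGF and -0.41 with FGF, against -4.19 and -4.32 for the gene. The next tested genes after it, Cant1, C1qtnf1 and Engase, had log2 -0.43, -1.41 and -2.29 without FGF. With FGF they had -0.49, -1.60 and -3.17. Those before it, Usp36, Timp2 and Cep295nl, had -0.68, 0.40 and -0.11 without FGF and -0.49, 0.45 and 0.83 with FGF. Isg15 (0.03), Gbp2 and Gbp7 (-0.08 each), Sp100 (-0.14), Trim21 (0.20) and Oasl2 (0.31) fell where neighbours had a median nearer 0 or above it. These medians do not show the closest genes (log2 without FGF). Beside Sp100 lie Sp110 and Sp140, given above, Gm17017 (-0.28), A630001G21Rik (-1.51), Cab39 (-0.04) and Itm2c (-0.68). Between Gbp3 and Gbp2 lies Gbp2b (-1.65), and before Gbp7 lie Pdlim5 (-0.49), Rap1gds1 (0.10) and Tspan5 (0.43). Oasl1, which rose by log2 0.54 without FGF and 0.83 with FGF, lies where the median was 0.31 and 0.22, above 39 and 50 of its 50 neighbours. Of the 23 members lower in both conditions, 20 were below the lower quartile of their neighbours in both, and Ifnar1, Ifngr1 and Ifngr2 were not. These 23 were picked as lower in the same comparisons, which by itself favours a place below neighbours. The share among all genes called lower in both is not given, so the count is description only. The part of these regional shifts in the members' differences was not tested.

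**Figure D4:**
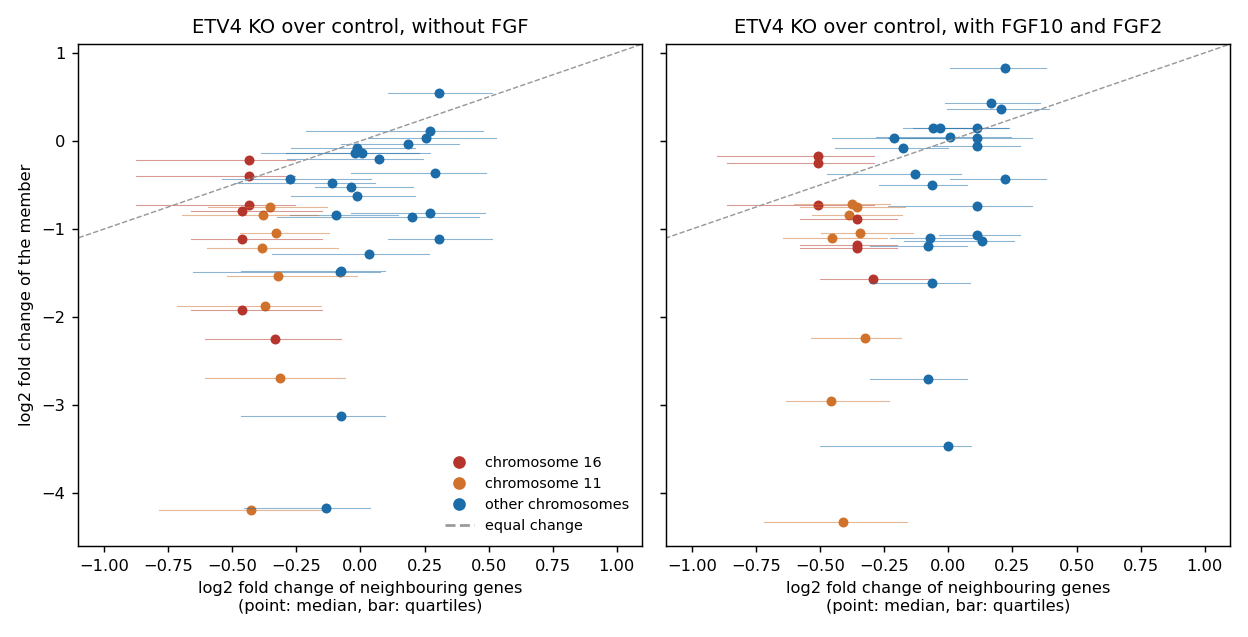
Log2 fold change of each expressed member (y axis) against the median of its nearest tested neighbours, up to 25 on each side (x axis; bars span the quartiles), without FGF on the left and with FGF on the right; points on the dashed line would move by the same amount. Members on chromosomes 11 and 16 sit at neighbour medians near -0.4, and Lgals3bp, Sp100, Gbp7 and Dhx58 lie far below the line.

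Other genes of the pathway were read alongside. Their lists were chosen by function but with earlier results of these data known, so their counts are not independent support. Of 20 genes for sensing and signalling upstream, all tested, 8 were lower and 4 higher in the knockout without FGF, and 8 lower and 3 higher with FGF. The shares over all genes were 23.3% lower and 22.5% higher without FGF and 22.2% and 18% with FGF, so the counts of higher genes were near the background. Jak2, a kinase of the interferon gamma receptor, fell from 177 ± 6.08 to 74.8 ± 11.2 CPM (log2 -1.25, SE 0.10, adjusted p = 5.45e-07) and with FGF from 154 ± 5.27 to 83.2 ± 3.71 CPM (log2 -0.89, SE 0.10, adjusted p = 1.07e-05; SD, n = 3 each). Tlr3 (log2 -0.95 and -0.51), Irf8 (-0.41 and -0.79) and Irf2 (-0.30 and -0.46) were lower in both, while Mavs, the adaptor of the RNA helicase sensors, was higher (0.57 and 0.35). Some of these calls were near the threshold: without FGF the Irf8 call was lost without Etv4_KO replicate 1 (adjusted p = 0.0501), and with FGF the Tlr3 call was lost on leaving out any of 8 of the 12 libraries (adjusted p up to 0.149). Among 12 negative regulators, 3 fell and 3 rose without FGF and 5 fell and 3 rose with it, counts that without FGF were near those shares in both directions. Socs3 (log2 -0.995 and -0.65) and Irf2bp2 (-0.65 and -0.89) were lower in both, Ptpn6 (1.08 and 0.91) and Ptpn1 (0.42 and 0.21) higher in both, the last lost with FGF on leaving out any of 8 libraries (adjusted p up to 0.144), and Pias1 was called lower with FGF (-0.42, against -0.14 without it). Of 52 further interferon-stimulated genes 41 were tested, of which 26 were lower and 3 higher without FGF, and 25 lower and 1 higher with it, with medians of log2 -0.59 and -0.56. Some of the 41, among them Sp140, Sp110, Casp1 and Slfn2, passed the filter through the control libraries and could only enter as lower genes. These counts and medians include them. Nlrc5, the activator of MHC class I genes, fell from 22.4 ± 1.25 to 2.31 ± 0.178 CPM (log2 -3.28, SE 0.14, adjusted p = 3.66e-09) and with FGF from 21.6 ± 2.53 to 2.78 ± 0.468 CPM (log2 -2.97, SE 0.14, adjusted p = 5.22e-09; SD, n = 3 each). Apol9b (-2.11 and -2.23), Lgals9 (-1.58 and -2.12) and Slfn2 (-5.07 and -4.83) were lower in both as well. Casp1, the protease of inflammasomes, fell from 6.76 ± 0.557 to 0.0799 ± 0.138 CPM without FGF (SD, n = 3 each), with 4 counts in Etv4_KO replicate 2 and 0 in both others, and with FGF it had 370 counts over the control and 2 over the knockout libraries (ratio 183, counting interval of 95% from 50.4 to 1520).

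Leukocytes and stromal cells express many of these genes, so their markers were summed per library. Of 12 macrophage and leukocyte markers, 4 had no count in any library, among them Adgre1, Tyrobp and Cd3e, and the sum, nearly all of it Cd68, was 6.17 to 9.44 CPM in control, 9.25 to 11.6 in knockout, 6.77 to 7.86 in control with FGF and 9.12 to 10.0 in knockout with FGF. Control and knockout overlapped in this sum without FGF and not with FGF. Fibroblast markers, 4 of 8 at 0 (Pdgfrb, Dcn, Lum and Thy1) and nearly all of the sum from Pdgfra, gave 9.76 to 11.5, 8.81 to 14.1, 7.93 to 11.3 and 12.3 to 15.8 CPM in the same order. Endothelial markers stayed under 0.75 CPM in sum. Epithelial markers, which define a carcinoma line, were present at 4000 to 6330 CPM in sum, with Krt5 alone of 9 at 0, and were lowest in knockout with FGF, at 4000 to 4120 CPM. Their part in the members' differences was not tested. In bulk RNA, fewer cells that express a gene and less RNA per cell cannot be told apart.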

How the data were processed

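Poly(A) RNA from 12 libraries was sequenced after a stranded preparation, per the labels. The values the authors deposited are raw counts of reads for each gene symbol. The submitters' processing notes name STAR 2.7.9a, featureCounts, FastQC 0.11.9 and R 4.1.1, and the builds mm10 and hg38. No annotation release, strand setting or rule for multi-mapping reads is given in the sources used here. The main test was the quasi-likelihood F-test of edgeR 4.0.16 (R 4.3.3), two-sided, on TMM-scaled counts that passed filterByExpr. One fit held all 12 libraries with 1 mean for each group. Benjamini-Hochberg adjustment ran over the 12079 genes tested, and calls were made under 0.05. Adjusted p-values come from this fit except where another tool is named. SE is the size of the log2 fold change divided by the root of F. CPM values are TMM-scaled, except in the expression rule (at least 1 CPM by library total in 3 libraries).

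The test was checked on simulated counts. Of 67 genes changed 1.5-fold, it recovered 50.7% without and 61.2% with FGF between genotypes. For the FGF effect it recovered 46.3% in control and 65.7% in knockout cells, and for the interaction 34.3%. At 2-fold the interaction share was 71.6%. Small FGF effects on the members could therefore go uncalled. Alternatives were DESeq2 1.42.0, limma-voom (limma 3.58.1), RLE and upper-quartile scaling, a looser and a stricter low-count filter, the replicate number as a block, fits on the compared libraries alone, and leaving out each library. Same-numbered libraries did not all deviate together (correlations from -0.0874 to 0.343), so replicate numbers were not taken to pair libraries. Gene coordinates are mm10 from GENCODE vM21, and promoters are RefSeq GRCm38.p6.

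The members and the gene lists were chosen with earlier results of these data known. Values per library are given for receptors, transcription factors, members called with at least a 2-fold difference in a knockout comparison, and those called with at least a 1.5-fold FGF effect. The members that rose, Ifih1, Ifit1 and the genes next to Sp100 were singled out after their values were seen. Of the other lists, up to 5 genes with the smallest adjusted p are named. Some genes of these lists are counted but not reported by name here.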

Additional observations from a re-analysis of the deposited data

How the results depend on the processing

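Knockout differences of the members held under nearly all alternatives. Over 540 refitted values of called members without FGF, 539 kept direction and call, and 1 lost its call; with FGF 529 of 540 did and 11 lost it, in each case on leaving out 1 library, and none reversed. Counts of members lower ranged from 25 to 28 without FGF and from 22 to 25 with FGF on leaving out each library, and members higher from 1 to 1 and from 2 to 3. Scaling moved the median of all genes by at most 0.051 on the log2 scale. Ifit2 without FGF and Xaf1 with FGF were also called lower by DESeq2, by limma-voom, with upper-quartile scaling, with no low-count filter and with the replicate block (adjusted p from 0.028 to 0.0499), and Xaf1 also with the compared libraries alone (0.0106). With the block, Gbp2 was no longer lower with FGF in knockout cells (0 members lower).

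FGF effects were less settled. Members lower with FGF in control cells numbered 0, but 1 with RLE scaling, 3 with the compared libraries alone, 1 with limma-voom, 2 with DESeq2, and from 0 to 3 on leaving out each library. Members higher with FGF in knockout cells numbered 1, but 0 with the compared libraries alone, 3 with DESeq2, and from 0 to 5 on leaving out each library; members lower numbered 1, but 0 with the compared libraries alone or limma-voom and from 0 to 2 on leaving out each library. Members higher in the interaction numbered 0, but 1 with DESeq2 and from 0 to 4 on leaving out each library. The Etv4 difference without FGF ranged from -0.513 to -0.269 on leaving out each library. With the compared libraries alone fewer samples estimate the spread, yet in control cells 3 members, Gbp2, Gbp7 and Irf1, gained a call. The same 3 were called without Etv4_KO replicate 2, a library that the fit on control cells alone also leaves out. The cause of these changes was not tested. At low counts, as for Oas3, Igtp and Gbp7, depth limits the precision.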
